A study of Mus musculus with 16 samples.

Results

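Transcript levels of 8 mouse genes of pyroptosis and interleukin-18 (IL-18) release were followed in sorted colonic epithelium: the gasdermin genes Gsdmc, Gsdmc2, Gsdmc3, Gsdmc4 and Gsdmd, the caspase genes Casp1 and Casp4, and the cytokine gene Il18. They were taken by gene symbol, and all 8 were among the 22396 symbols listed. Levels are in TPM, a length-corrected unit of transcript abundance, summed over the transcripts of a gene. Of the 8 genes, 7 averaged at least 1 TPM in both deposited tables, and the exception was Gsdmc, whose highest value in any mouse was 2.14e-06 TPM.

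The series holds 1 bulk RNA-seq library from each of 16 mice, made from EpCAM+ cells that were sorted from the mucosa of the distal colon. All mice carried floxed alleles of Tnfrsf1b (Tnfr2), which encodes a receptor for tumour necrosis factor. Mice labelled knockout also carried Vil1::Cre, in which the villin promoter drives Cre recombinase in intestinal epithelium, and control mice (Tnfr2-f/f) had no Cre. The study asked what epithelial TNFR2 does during repair of the colon after injury by dextran sulfate sodium (DSS), a polymer that damages the mucosa when given in drinking water. DSS-treated mice (3 controls and 4 labelled knockout) received 3% DSS for 6 days per the labels and were dissected on day 12. Their injured regions were separated before sorting. Water-treated mice (4 controls and 5 labelled knockout) received 0% DSS and carry the same day in the labels, while the study's methods give a higher DSS strength and describe the uninjured mice as taken at the start. The DSS-treated mice were 7 females in cages c and d. The water-treated mice were 4 males in cage a and 5 females in cage b, with both genotypes in every cage. The labels state no ages.

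Gasdermins are proteins whose amino-terminal part, once released by cleavage, forms pores in membranes. Caspase-1, activated in inflammasomes, and caspase-4 (caspase-11 in older mouse nomenclature), which binds bacterial lipopolysaccharide, both cleave gasdermin D, and caspase-1 also matures IL-18, a cytokine that intestinal epithelium makes without injury. Mouse Gsdmc genes lie in a cluster of close copies, are prominent in gut epithelium, and are known to be induced there by the type 2 cytokines IL-4 and IL-13.

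The gasdermin C genes resembled each other closely enough to share sequencing reads, which bears on every value given for them. On GRCm38 (mm10) they lie side by side on the minus strand of chromosome 15: Gsdmc at chr15:63775968-63808759, Gsdmc2 at chr15:63824346-63845177, Gsdmc3 at chr15:63857724-63878558 and Gsdmc4 at chr15:63891264-63912297. Each of the last 3 has a coding sequence of 1440 bases. Coding identity was 97.1% between Gsdmc2 and Gsdmc3, 93.7% between Gsdmc2 and Gsdmc4, and 93.8% between Gsdmc3 and Gsdmc4, whereas Gsdmc was 86.7% to 87.5% identical to them. Reads of the library were 75 bases long. Along the aligned coding sequences of Gsdmc2, Gsdmc3 and Gsdmc4, 319 of 1178 windows of that length (27.1%) were the same in all 3 genes, and the median window differed at 2 positions. The window that differed most is shown 5′ to 3′ on the coding strand, with the 19 positions at which the 3 genes were not all alike in capitals. It runs from coding base 788 to 862 of Gsdmc2 (chr15:63826884-63827790, minus strand, across an intron), from 788 to 862 of Gsdmc3 (chr15:63860314-63861210) and from 794 to 868 of Gsdmc4 (chr15:63893831-63894699).
Gsdmc2: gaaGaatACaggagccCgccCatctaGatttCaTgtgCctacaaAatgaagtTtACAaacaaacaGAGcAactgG
Gsdmc3: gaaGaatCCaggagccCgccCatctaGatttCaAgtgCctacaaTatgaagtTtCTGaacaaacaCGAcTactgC
Gsdmc4: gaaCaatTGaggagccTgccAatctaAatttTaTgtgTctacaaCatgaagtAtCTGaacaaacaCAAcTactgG
By contrast, the first 75 coding bases were the same in all 3 genes, and a read from that stretch cannot be given to a gene by its letters. They are printed once, from Gsdmc2 at chr15:63835869-63835943.
Gsdmc2, Gsdmc3 and Gsdmc4: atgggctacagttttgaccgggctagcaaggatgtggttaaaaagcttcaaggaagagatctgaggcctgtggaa

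Over all listed transcripts, 60.7% of the 75-base windows of Gsdmc2 occurred in no other annotated gene, against 64.2% for Gsdmc3, 71.5% for Gsdmc4 and 88.8% for Gsdmc. Gsdmc2 shared 30.5% of its windows with Gsdmc3 and 17.6% with Gsdmc4. At 31 bases, the default match length of kallisto (the setting used is not given in the sources used here), the part found in no other gene was 36.1% for Gsdmc2, 40.5% for Gsdmc3 and 48.8% for Gsdmc4. Gsdmd (chr15:75862327-75867408, plus strand), Casp1 (chr9:5298517-5307265, plus strand), Casp4 (chr9:5308828-5336783, plus strand) and Il18 (chr9:50554827-50581840, plus strand) shared no window of either length with another gene. Casp1 and Casp4 are neighbours, 1562 bases apart. How reads were divided within the gasdermin C family is thus a matter of the abundance model, and for that reason the sum of Gsdmc2, Gsdmc3 and Gsdmc4 is given beside the single genes. Gsdmcl1 and Gsdmcl2, pseudogenes of the same cluster, were not analysed here.

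**Figure D1:**
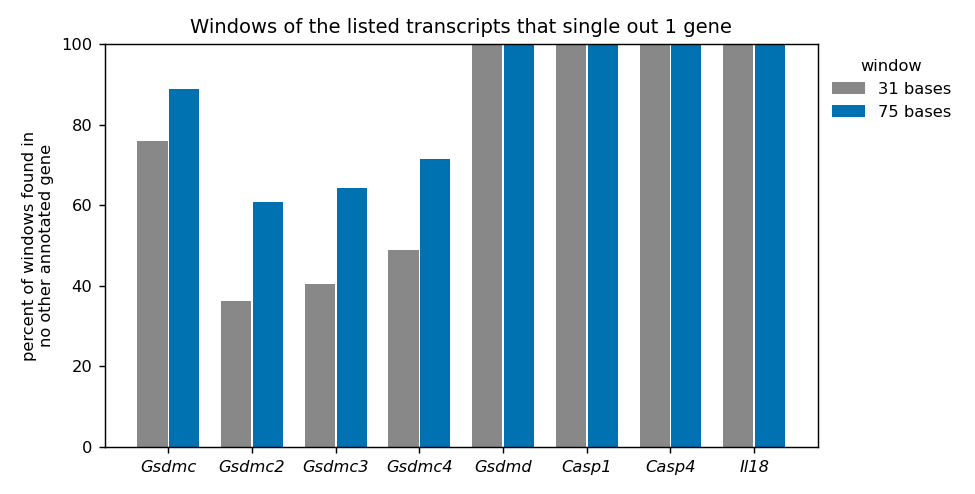
Percent of the 31-base and 75-base windows (vertical axis, percent) of each of the 8 genes that occurred in no other annotated gene, from the transcripts listed for it. Gsdmd, Casp1, Casp4 and Il18 reach 100%, while Gsdmc2 lies lowest at 36.1% and 60.7%.

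The 2 treatments were deposited as separate tables that may have been scaled separately, so no test was made between them. No cage held both treatments, so treatment cannot be told apart from cage or library set. All DSS-treated mice were female, while 4 of the 9 water-treated mice were male, so levels are also given for females alone. DSS and water values are therefore compared as levels on 4 scales: TPM as deposited, TPM after one median-of-ratios rescaling of all 16 mice, TPM over each mouse's sum, and TPM over the geometric mean of 10 epithelial markers. The median of 11247 genes was higher after DSS by 0.32, 0.01, 0.38 and 0.18 on the log2 scale in that order. Mice of the same group correlated at a Spearman's rho of 0.857 to 0.952 across genes. Tnfrsf1b, the targeted gene, stood at 13.5, 15.4, 11.1 and 15.5 TPM in control mice given water and at 11.4, 10.1, 9.23, 14.8 and 13.3 TPM in water-treated mice labelled knockout. After DSS it stood at 22.2, 13.9 and 13.3 TPM in controls and at 27.0, 13.5, 15.2 and 17.7 TPM in mice labelled knockout. The genotypes overlapped in both treatments, and the exact permutation p was 0.198 for water and 0.629 for DSS. The study's methods place the loxP sites around exon 2. TPM summed over the gene take in reads from all its exons, so these values do not check the deletion, and genotypes are named below as labelled.

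The sort held epithelium by its markers, whose summed level was 4930 to 6720 TPM in water-treated and 4839 to 7927 TPM in DSS-treated mice, led by the keratin genes Krt8 and Krt19. It held other cells too, and not equally. Macrophage and monocyte markers summed to 1136 to 2509 TPM after water and 17.5 to 62.1 TPM after DSS, with Lyz2 and C1qa the highest. All 8 of 8 were lower after DSS without overlap, as were 4.16% of all genes as deposited. Leukocyte markers summed to 167 to 486 TPM and 13.2 to 53.3 TPM, with 5 of the 5 that averaged at least 1 TPM lower (Cd52 and Laptm5 highest). B and plasma cell markers summed to 2597 to 147777 TPM and 70.3 to 3972 TPM, with 4 of 6 lower (Igkc and Jchain highest). Neutrophil markers went the other way in sum, with 10.2 to 29.2 TPM after water and 49.8 to 1929 TPM after DSS, carried by S100a8 and S100a9. The 1929 TPM was a single control, and mice labelled knockout reached at most 520 TPM. Of the 4 that averaged at least 1 TPM, 2 were higher without overlap, beside 18.9% of all genes as deposited and 4.52% rescaled. Mpo was at 0 in all DSS-treated mice, and whether these transcripts came from neutrophils was not tested. T cell markers summed to at most 7.83 TPM in any mouse. These markers moved with treatment, and their part in the DSS results below was not tested. In such bulk samples, fewer cells of a type and less RNA per cell cannot be told apart.

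Gsdmc4, Gsdmc2 and Gsdmc3, in that order, were the gasdermin C genes detected in colonic epithelium, and all of them stood lower in every DSS-treated mouse than in every water-treated mouse. Together they summed to 1184 ± 408 TPM (SD, n = 9) after water and 441 ± 79.9 TPM (SD, n = 7) after DSS. Gsdmc4 had the highest level of all 8 genes in every group. Its values were 743, 374, 466 and 462 TPM in control mice given water and 932, 884, 565, 529 and 622 TPM in water-treated mice labelled knockout. After DSS they were 171, 254 and 302 TPM in controls and 218, 189, 222 and 229 TPM in mice labelled knockout. The lowest water-treated mouse (374 TPM) thus lay above the highest DSS-treated mouse (302 TPM), and mice labelled knockout after water held the highest values.

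Gsdmc2 followed the same order at a lower level. It was listed at 505, 203, 264 and 305 TPM in control mice given water and at 709.5, 628, 282, 332 and 445 TPM in water-treated mice labelled knockout. In DSS-treated mice it was at 111, 191 and 191 TPM in controls and at 140.3, 156, 143 and 158 TPM in mice labelled knockout. The gap between treatments was narrow, from 191 to 203 TPM, because 1 water-treated control of cage b lay low. Gsdmc3, the least abundant of the detected copies, read 162, 114, 129 and 95.7 TPM in control mice given water and 243, 198, 157, 156 and 149 TPM in water-treated mice labelled knockout. After DSS its values were 51.5, 64.7 and 85.5 TPM in controls and 51.0, 58.9, 54.6 and 43.6 TPM in mice labelled knockout. No DSS-treated mouse reached the lowest water-treated one.

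**Figure D2:**
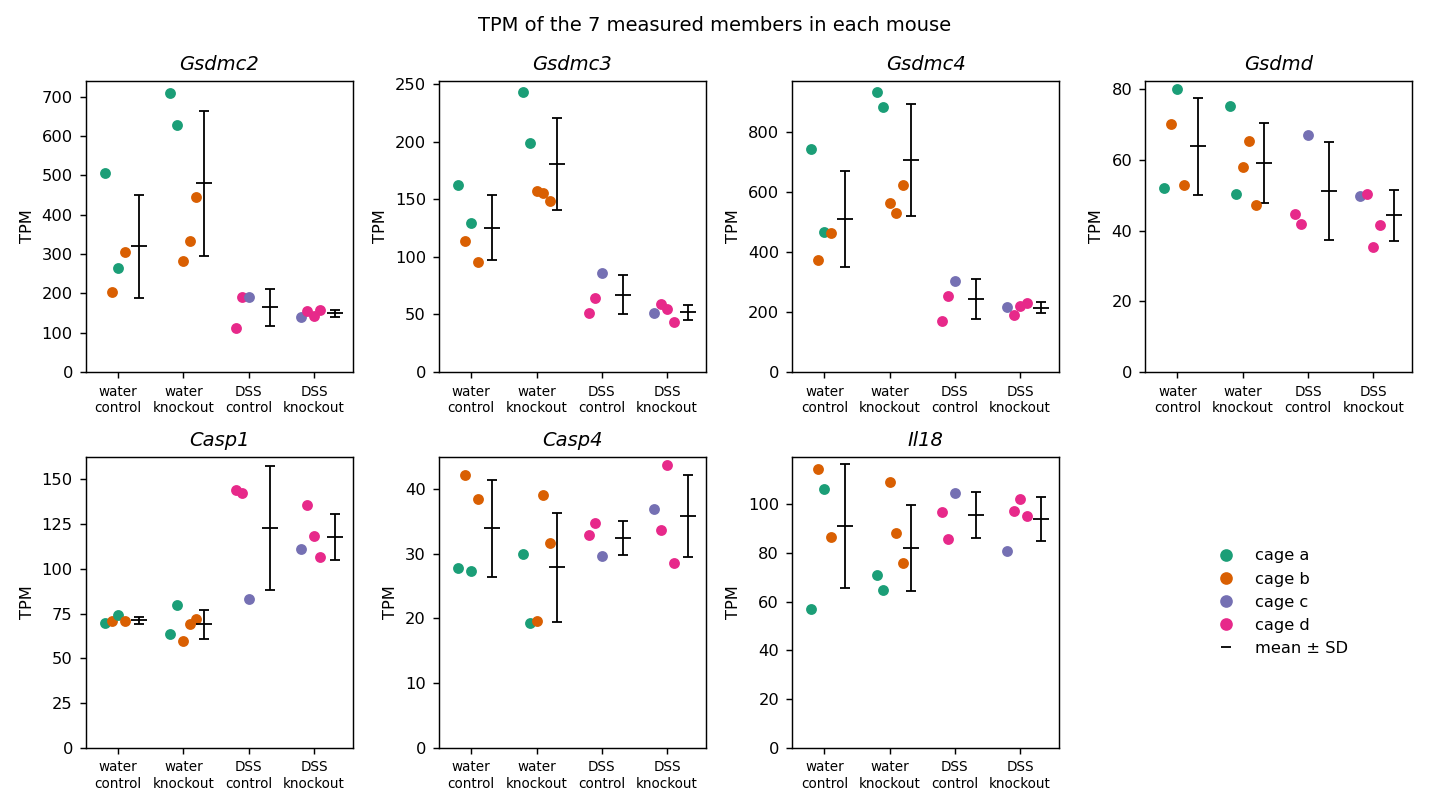
TPM as deposited (vertical axis of each panel, from 0) of the 7 detected genes in each mouse, by treatment and genotype label. Points are mice coloured by cage, bars are group means ± SD, and the panels of Gsdmc2, Gsdmc3 and Gsdmc4 show every DSS-treated mouse below every water-treated mouse.

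On the log2(TPM + 1) scale, mean Gsdmc2 was lower after DSS by 0.91 in control mice and by 1.59 in mice labelled knockout, Gsdmc3 by 0.89 and 1.76, and Gsdmc4 by 1.07 and 1.68. Over all mice, the mean after DSS was 0.382 of the water mean for Gsdmc2, 0.375 for Gsdmc3 and 0.365 for Gsdmc4. Against the 5 water-treated females alone, a comparison added after the data were seen, the ratios were 0.497, 0.436 and 0.444, with a family sum of 958 ± 195 TPM (SD, n = 5) after water. All 3 kept DSS-treated mice below water-treated mice without overlap on each of the 4 scales. That held for 4.16% of all 11247 genes as deposited, 3.55% over summed TPM and 5.67% over epithelial markers. It held for 6.96% after the common rescaling. On that scale the log2 differences of all mice were -1.65 for Gsdmc2, -1.73 for Gsdmc3 and -1.77 for Gsdmc4. After rescaling, Gsdmc4 ranged from 408 to 996 TPM after water and from 148 to 244 TPM after DSS. The difference between the genotypes in this change was not tested, since the tables may have been scaled separately.

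Water-treated and DSS-treated epithelium differed in the amount of gasdermin C transcripts but hardly in their composition. Gsdmc4 made up 52.8 ± 2.0% (SD, n = 9) of the sum of the 3 genes after water and 51.3 ± 2.4% (SD, n = 7) after DSS. Gsdmc2 made up 33.7 ± 3.5% and 35.4 ± 2.2%, and Gsdmc3 made up 13.5 ± 2.1% and 13.3 ± 1.8%. Every difference between those means was smaller than the SD between mice of a treatment. As the genes share windows, the shares depend on the abundance model that set them.

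**Figure D3:**
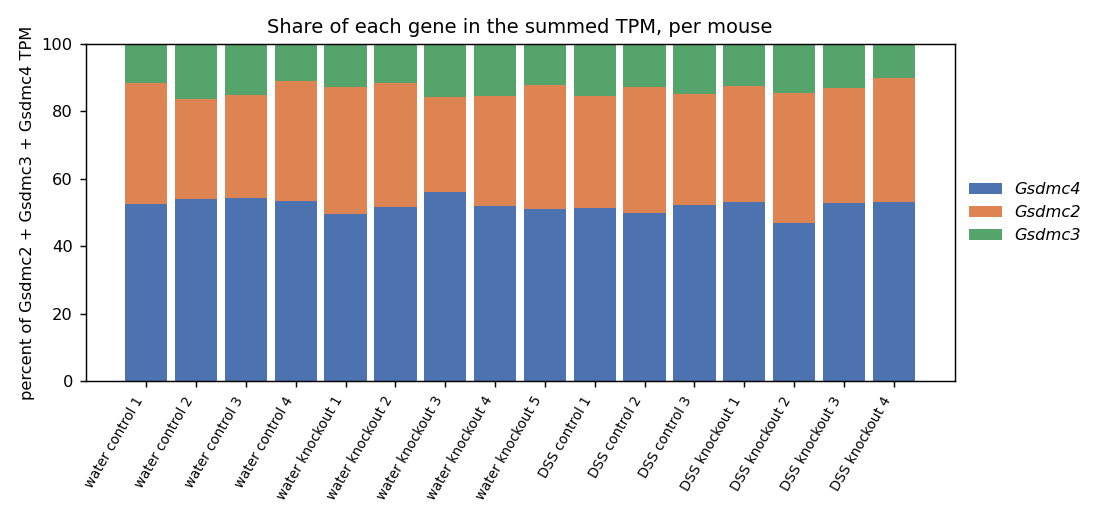
Percent of the summed TPM of Gsdmc2, Gsdmc3 and Gsdmc4 held by each gene (vertical axis, percent) in each of the 16 mice, 1 stacked bar per mouse. Gsdmc4 holds 46.8% to 56.2% of the sum in every mouse, Gsdmc2 28.1% to 38.6% and Gsdmc3 10.1% to 16.4%.

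Gsdmd, whose product is the pore former cleaved by inflammatory caspases, was moderately expressed and overlapped between treatments. Its values were 52.1, 70.3, 80.1 and 53.0 TPM in control mice given water and 75.2, 50.4, 58.1, 65.5 and 47.4 TPM in water-treated mice labelled knockout. After DSS they were 44.9, 41.8 and 67.1 TPM in controls and 49.9, 50.4, 35.3 and 41.7 TPM in mice labelled knockout. The highest DSS-treated mouse, control replicate 3 of cage c, lay above 6 of the 9 water-treated mice. The mean log2 level in all DSS-treated mice was 0.37 below that of water-treated mice as deposited and 0.72 below it after the common rescaling. Only when divided by epithelial markers did all DSS-treated mice lie below all water-treated mice, as did 5.67% of all genes on that scale.

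Casp1 was the one member with a higher level after DSS in every mouse as deposited. Water-treated mice lay close together, at 69.5, 70.8, 74.2 and 70.8 TPM in controls and at 63.4, 79.9, 59.6, 69.4 and 72.2 TPM in mice labelled knockout. DSS-treated controls were at 144, 142 and 83.0 TPM, and DSS-treated mice labelled knockout at 111, 136, 118 and 106 TPM. The 83.0 TPM belonged to control replicate 3 of cage c, far below the other DSS-treated mice. Mean Casp1 was 70.0 ± 5.86 TPM (SD, n = 9) after water and 120.1 ± 22.2 TPM (SD, n = 7) after DSS, a ratio of 1.72. The same separation, all DSS-treated above all water-treated mice, was found for 18.9% of all genes as deposited and for 4.52% after the common rescaling. Casp1 was not among the latter: rescaled, control replicate 3 fell to 66.9 TPM, while the other DSS-treated mice were at 90.8 to 125 TPM and water-treated mice reached at most 87.6 TPM. The log2 difference over all mice was 0.75 as deposited and 0.40 rescaled. The ratio of Casp1 to Gsdmd in a mouse, which no scaling of a library changes, had a median of 1.06 after water (0.844 to 1.59) and of 2.69 after DSS (1.24 to 3.40), where 1.24 was again control replicate 3.

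Casp4, the neighbour of Casp1, did not separate the treatments. It was listed at 27.8, 42.1, 27.4 and 38.4 TPM in control mice given water and at 30.0, 19.3, 19.6, 39.0 and 31.6 TPM in water-treated mice labelled knockout. After DSS it was at 32.9, 34.7 and 29.6 TPM in controls and at 36.9, 33.7, 43.7 and 28.6 TPM in mice labelled knockout. All DSS-treated values but 1 lay inside the water range of 19.3 to 42.1 TPM, and the log2 difference over all mice went from 0.20 as deposited to -0.15 rescaled. Casp4 was the least abundant of the 7 detected genes.

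Il18, the cytokine gene, also overlapped fully. Water-treated controls had 57.1, 114, 106 and 86.4 TPM, and water-treated mice labelled knockout had 71.1, 64.8, 109, 88.3 and 75.8 TPM. DSS-treated controls had 96.8, 85.8 and 105 TPM, and DSS-treated mice labelled knockout had 80.9, 97.2, 102 and 95.04 TPM. Every DSS-treated value lay within the water range, with a narrower spread of 8.48 TPM (SD, n = 7) against 20.5 TPM (SD, n = 9). Its log2 difference over all mice was 0.17 as deposited, -0.19 after the common rescaling and 0.01 over epithelial markers. The ratio of Il18 to Casp1 had a median of 1.22 after water (0.810 to 1.83) and of 0.729 after DSS (0.603 to 1.26).

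**Figure D4:**
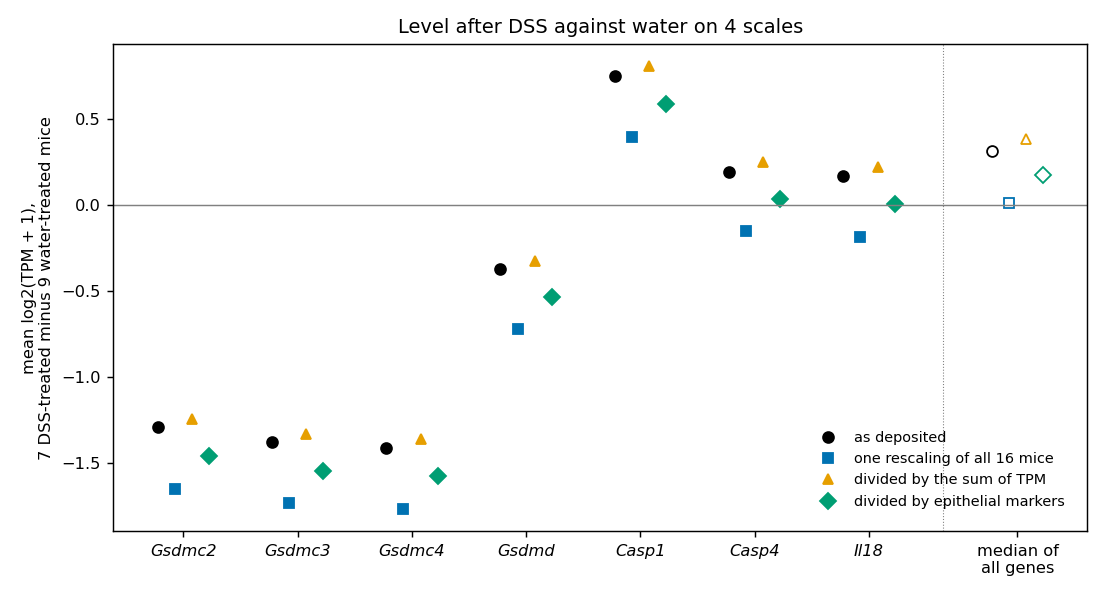
Mean log2(TPM + 1) in the 7 DSS-treated mice less that in the 9 water-treated mice (vertical axis, log2 units) for each detected gene on 4 scales. The median of 11247 genes on each scale is the reference. Gsdmc2, Gsdmc3 and Gsdmc4 lie farthest below 0 on all 4 scales, Casp1 lies above 0 on all 4, and Casp4 and Il18 change sign between scales.

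By genotype, none of the 7 tested genes changed after adjustment over all genes, in either treatment. In the limma fits 1 of 10899 genes (0.00918%) was called between genotypes after DSS, and 1 of 11046 (0.00905%) after water. At an unadjusted p under 0.05 the shares of all genes were 2.65% after DSS and 5.28% after water. Among the members none after DSS and 1 after water, Gsdmc3, was under that level.

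The gasdermin C genes had higher means in water-treated mice labelled knockout than in their controls. Gsdmc3 averaged 181 ± 39.8 TPM (SD, n = 5) against 125 ± 28.1 TPM (SD, n = 4), a log2 difference of 0.53 (SE 0.19). Its unadjusted limma p was 0.0218 and its adjusted p 0.865. For Gsdmc2 the means were 479 ± 185 and 319 ± 131 TPM, with a log2 difference of 0.58 (SE 0.34; adjusted p = 0.865, limma). For Gsdmc4 they were 706 ± 188 and 511 ± 160.2 TPM, with a log2 difference of 0.47 (SE 0.24; adjusted p = 0.865, limma). Exact two-sided permutation tests of TPM gave p = 0.183 for Gsdmc2, 0.0714 for Gsdmc3 and 0.151 for Gsdmc4, where the smallest p this design allows is 0.00794. The genotypes overlapped for each gene, as the control of cage a with 505 TPM of Gsdmc2 lay above 3 mice labelled knockout.

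Within a cage the same genes separated further. In cage a mean Gsdmc3 was 146 TPM in 2 controls against 220.5 TPM in 2 mice labelled knockout, and in cage b it was 105 TPM (2 controls) against 154 TPM (3 mice labelled knockout). Mean Gsdmc4 was 605 and 908 TPM in cage a and 418 and 572 TPM in cage b. In both cages every mouse labelled knockout lay above every control of its cage for Gsdmc3 and Gsdmc4. That held upward for 1.97% of all 11046 genes and downward for 2.46%. Gsdmc2 separated in cage a (385 and 669 TPM) but not in cage b (254 and 353 TPM). With cage in the limma fit, the log2 differences were 0.65 (SE 0.24) for Gsdmc2, 0.58 (SE 0.11) for Gsdmc3 and 0.53 (SE 0.16) for Gsdmc4, and the adjusted p was 0.787 for each.

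After DSS the gasdermin C genes showed no such order. Gsdmc2 averaged 164 ± 46.5 TPM (SD, n = 3) in controls and 149 ± 9.25 TPM (SD, n = 4) in mice labelled knockout, with a log2 difference of -0.10 (SE 0.20). The corresponding differences were -0.34 (SE 0.19) for Gsdmc3 and -0.14 (SE 0.19) for Gsdmc4, and the adjusted p from limma was 1.00 for all members. Controls spread widely, from 333 to 579 TPM in the family sum, while the mice labelled knockout lay between 404 and 431 TPM. In cage d, with 2 controls and 3 mice labelled knockout, the ratio of the genotype means was 1.01 for Gsdmc2, 0.902 for Gsdmc3 and 1.00 for Gsdmc4. In cage c, with 1 mouse of each label, it was 0.734, 0.596 and 0.720.

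For the remaining members no genotype difference passed adjustment, and all were under 1.5 times their SE. In water-treated mice they were -0.10 (SE 0.18) for Gsdmd, -0.06 (SE 0.10) for Casp1, -0.30 (SE 0.23) for Casp4 and -0.13 (SE 0.22) for Il18 on the log2 scale. After DSS they were -0.19 (SE 0.20) for Gsdmd, -0.02 (SE 0.21) for Casp1 and 0.13 (SE 0.16) for Casp4, and Il18 differed by -0.03. Exact permutation p values ranged from 0.341 to 0.587 after water and from 0.457 to 0.83 after DSS, where the smallest possible p was 0.0286. Casp1 went in opposite directions in the 2 DSS cages, with means of 143 and 120.2 TPM in controls and mice labelled knockout of cage d but 83.0 and 111 TPM in the single mice of cage c.

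**Figure D5:**
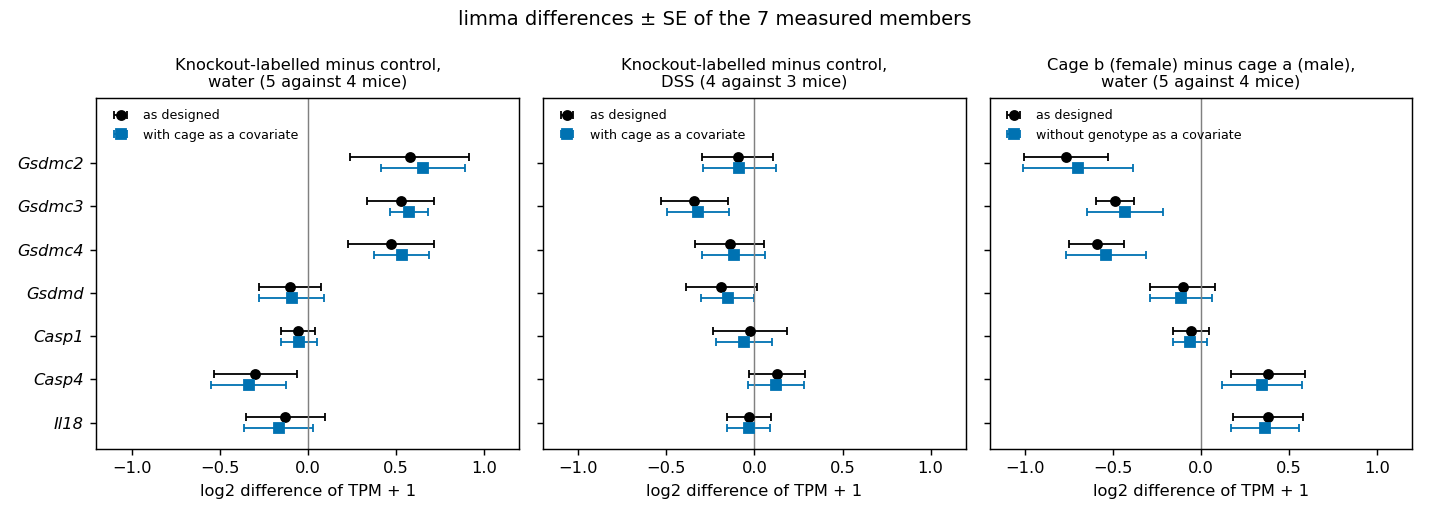
Log2 differences ± SE from limma (horizontal axis, log2 units) of the 7 detected genes, between mice labelled knockout and controls after water and after DSS, and between cages b and a of the water-treated mice, each with and without the other factor in the fit. Gsdmc2, Gsdmc3 and Gsdmc4 lie above 0 for genotype after water and below 0 for cage, and no adjusted p was under 0.05.

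Water-treated mice of cage b (females) had lower gasdermin C levels than those of cage a (males), and sex and cage cannot be told apart. Mean Gsdmc4 was 756 ± 209 TPM (SD, n = 4) in cage a and 511 ± 95.8 TPM (SD, n = 5) in cage b. Mean Gsdmc2 was 527 ± 194 and 313 ± 87.8 TPM, and mean Gsdmc3 was 183 ± 48.7 and 134 ± 27.9 TPM. With genotype in the limma fit, cage b was lower by 0.59 on the log2 scale for Gsdmc4 (SE 0.16), by 0.76 for Gsdmc2 (SE 0.24) and by 0.49 for Gsdmc3 (SE 0.11). None passed adjustment over all genes, with adjusted limma p of 0.651, 0.696 and 0.553. In this fit 4 of 11046 genes (0.0362%) were called, and 6.83% had an unadjusted p under 0.05, against 3 of the 7 members. The 3 were Gsdmc2, Gsdmc3 and Gsdmc4, which share windows and varied together, so they are not 3 independent results. Il18 and Casp4 had the opposite sign, each higher in cage b by 0.38 (SE 0.20 and 0.21; adjusted p not under 0.05), with mean Il18 at 74.8 ± 21.7 TPM in cage a and 94.9 ± 16.3 TPM in cage b. In the list of type 2 response genes no member was called between the cages. Retnlb, a goblet cell product induced by type 2 cytokines, ranged from 4.16 to 648 TPM after water and from 12.3 to 206 TPM after DSS, with a log2 difference of -1.59 (SE 1.18) in cage b. The receptor genes Il4ra and Il2rg had the other sign, at 0.50 (SE 0.16) and 0.76 (SE 0.35). Stat6, Jak1 and a further receptor gene, Il13ra1, lay within 0.08 of 0.

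In a list of inflammasome sensors, adaptors and related genes, 13 of 17 averaged at least 1 TPM. Of these, 7 were higher in every DSS-treated than in every water-treated mouse as deposited, beside 18.9% of all genes. They were Nlrc4, Naip2, Naip5, Naip6, Aim2, Card6 and the adaptor gene Pycard. After the common rescaling 3 stayed apart, beside 4.52% of all genes. These were Nlrc4, Naip5 and Naip6, which belong to the inflammasome that recognises bacterial flagellin and secretion systems. The Naip genes are close copies of each other, so their separate values are uncertain. Naip6 ranged from 12.3 to 28.3 TPM after water and from 45.5 to 61.2 TPM after DSS. Naip5 ranged from 10.9 to 21.4 TPM and from 32.2 to 45.9 TPM, and Nlrc4, the adaptor that NAIPs activate, from 9.27 to 12.3 TPM and from 20.5 to 28.9 TPM. The cytosolic DNA sensor Aim2 was among the 7 only as deposited, with 18.2 to 27.4 TPM after water and 36.7 to 55.6 TPM after DSS. Card9, a signalling adaptor typical of myeloid cells, was the single gene of the list lower without overlap, as deposited and rescaled. It was at 1.55 to 4.20 TPM after water and 0.09 to 0.48 TPM after DSS. Such separation held for 4.16% of all genes as deposited and 6.96% rescaled. Nlrp3, which did overlap, also had lower means after DSS. They were 13.2 TPM in controls and 12.0 TPM in mice labelled knockout after water, against 5.16 and 2.13 TPM after DSS.

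Of 8 other caspases, 7 averaged at least 1 TPM. Of these, 3 were higher after DSS without overlap as deposited, Casp2 and Casp6 among them, beside 18.9% of all genes. Casp2 alone stayed so after rescaling, beside 4.52% of all genes. It was at 9.20 to 13.3 TPM after water and 20.6 to 24.9 TPM after DSS. Casp8, the initiator of death receptor signalling, overlapped at 18.1 to 34.7 and 25.3 to 52.8 TPM. Of the 12 guanylate-binding and membrane rupture genes in the files, Ninj1 was lower in every DSS-treated mouse as deposited, beside 4.16% of all genes. Ninj1 encodes the protein that ruptures the plasma membrane after gasdermin pores form. It ranged from 36.0 to 59.6 TPM after water and from 8.93 to 20.9 TPM after DSS. Gbp9 and Irf2 joined it after rescaling, beside 6.96% of all genes. Irf1, an interferon-responsive regulator and the most abundant of the list, overlapped at 60.8 to 88.6 and 57.0 to 116.5 TPM.

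In the IL-1 family and IL-18 pathway list, 11 of 12 genes were in the files, and none separated the treatments on either scale. Il1b, a cytokine gene with high levels in myeloid cells, ranged from 70.6 to 212.5 TPM after water and from 10.8 to 210.6 TPM after DSS. The 210.6 TPM belonged to a single control, in which the list summed to 326 TPM. The sum of the list had a median of 41.9 TPM in DSS-treated controls. It was at most 77.5 TPM in DSS-treated mice labelled knockout, against 91.1 to 258 TPM after water. Il1rn, the receptor antagonist gene, ranged from 5.79 to 14.2 and from 12.1 to 24.4 TPM, and the decoy receptor gene Il1r2 from 4.98 to 23.6 and from 0.39 to 21.7 TPM. The IL-18 receptor genes Il18r1 and Il18rap stayed at or below 1.49 TPM in every mouse. Other gasdermin genes were low: Gsdme reached at most 5.16 TPM and Gsdma at most 4.22 TPM, and Pjvk at most 0.80 TPM. Of 7 type 2 response genes averaging at least 1 TPM, Il13ra1, a receptor subunit gene, was higher after DSS as deposited. It ranged from 23.4 to 32.6 TPM after water and from 37.2 to 51.3 TPM after DSS, and 18.9% of all genes separated that way. Il2rg was lower on both scales (9.79 to 49.7 and 1.07 to 4.63 TPM), as were 4.16% of all genes as deposited and 6.96% rescaled. Jak1 overlapped. No gene of any of these lists was called between genotypes or cages by limma.

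Markers of epithelial subtypes are given as sums in TPM, with no test. Surface colonocyte markers summed to 395 to 711 TPM after water and 290.4 to 456 TPM after DSS, led by Car4 and Krt20. Of these 4 markers 1 was lower without overlap, beside 4.16% of all genes as deposited. Crypt progenitor markers, led by Mki67 and Top2a, summed to 35.3 to 59.5 TPM after water and 74.2 to 129 TPM after DSS. Of these 4 markers 2 were higher without overlap as deposited, beside 18.9% of all genes, and 1 rescaled, beside 4.52%. Goblet cell markers, led by Zg16 and Tff3, summed to 2308 to 4493 TPM after water and 497 to 4765 TPM after DSS. The overlap came from a single DSS-treated control at 4765 TPM, as the median of DSS-treated controls was 1375 TPM. DSS-treated mice labelled knockout reached at most 1027 TPM. Of the 4 goblet cell markers 1 was lower without overlap, beside 4.16% of all genes as deposited and 6.96% rescaled. Tuft cell markers (Trpm5 and Pou2f3 highest) overlapped at 2.33 to 14.7 and 1.14 to 18.7 TPM. Stromal markers, led by Dcn and Col3a1, were at 209 to 746 and 107 to 504 TPM, and endothelial markers, led by Cdh5 and Kdr, at 3.99 to 12.4 and 5.14 to 14.3 TPM. The part of these cells in the levels of the gasdermin C genes was not tested.

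To see which genes varied like each member from mouse to mouse, log2 levels less the mean of each group were correlated over the 16 mice with those of 7279 genes averaging at least 5 TPM. These are descriptions of 16 libraries, which share depth and cell content within a mouse. Gsdmc2 and Gsdmc4 were each other's closest, with r = 0.93 and Spearman's rho = 0.89, and r stayed at 0.93 without the 2 mice farthest from the median of Gsdmc2. They also share 17.6% of windows, as above. Next came Rnase2a (r = 0.87) and Gfm1 (r = 0.85) for Gsdmc2, and Mrpl37 (r = 0.91) and Dnajc14 (r = 0.86) for Gsdmc4. Within DSS-treated mice alone, r with Gsdmc2 was 0.31 for Gfm1 and could not be calculated for Rnase2a. Within water-treated mice it was 0.94 and 0.96. Gsdmc3 was closest to H1f0 (r = 0.88), Cox5b (r = 0.86) and Rps20 (r = 0.86), and its r with Gsdmc4 was 0.78 and with Gsdmc2 0.71. Gsdmd was closest to Vps11 (r = 0.91), Wwp2 (r = 0.89) and Cdc42ep5 (r = 0.87), and Casp1 to Zyg11b (r = 0.91), Dhx36 (r = 0.90) and Psme4 (r = 0.88). Casp4 was closest to Thbs1 (r = 0.90), Usp28 (r = 0.87) and Egr2 (r = 0.84), and Il18 to Gm20594 (r = 0.83), Igkv8-27 (r = 0.82) and Itih5 (r = 0.76). Within DSS-treated mice alone, r with Il18 was 0.50 for Igkv8-27 and 0.51 for Itih5.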

How the data were processed

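RNA-seq libraries (stranded, polyA-selected, single-end reads of 75 bases) of EpCAM+ cells from 16 mice were used. The authors deposited 1 table of TPM per transcript and mouse for each treatment; the submitters' processing notes name kallisto, sleuth and mm10 with no version, and the transcript release is not given in the sources used here. TPM keep no depth. The deposited tables also hold, per transcript, the authors' mean natural log of estimated counts, which gave the reads behind a member per mouse: about 2413 (DSS) and 3243 (water) for Gsdmc4, 252 and 106 for Casp4. Columns of the authors' own comparisons (p and q values, log2 ratios) were not used, and 0 per-sample columns belonged to no sample.

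After 385 repeated lines were dropped from each table, TPM were summed over 28988 unique transcripts to 22396 symbols. Genes averaging at least 1 TPM in a table were fitted as log2(TPM + 1) with limma 3.58.1 (R 4.3.3) within that table, with genotype alone, or cage with genotype, and Benjamini-Hochberg adjusted p below 0.05 as the call; a fold on this scale understates changes of low genes. Single members were also compared by exact two-sided permutation tests over mice. Replicates were separate mice; the labels name no litters, and pairing by replicate number was checked and not found. The fits were tested on data with known answers. Windows and coding identity came from 141767 GENCODE M21 transcripts on GRCm38, in which all 14 listed member transcripts were found. Python 3.11.15, pandas 2.3.3, NumPy 2.4.6, Biopython 1.88 and Matplotlib 3.10.9 were used.

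The members and lists were chosen with earlier results of these data known. Named were the 8 members, Tnfrsf1b, the 3 genes most like each member, and the 2 highest genes of each marker list. Of each pathway list, the genes called and the 3 with the highest mean TPM were named. Pathway list genes named for not overlapping between treatments, and Nlrp3, were chosen after their values were seen, and not all such genes are named. Gsdmcl1, Gsdmcl2, Il36g and Gm12250 were not analysed here. Some genes of the lists are not reported here. Alternatives were other pseudocounts, filters, scalings, the transcript as unit, a replicate block, cage as covariate and leaving out each mouse; the within-table rescaling, epithelial scaling and leave-one-out of the exact tests, the all-mice, female and epithelial levels, and the rescaled cage comparison were chosen after seeing the data.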

Additional observations from a re-analysis of the deposited data

How the results depend on the processing

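No member passed an adjusted p of 0.05 in the alternative limma fits, in 98 values for genotype after DSS (lowest adjusted p 0.837), 112 for genotype after water (0.708) and 105 for cage (0.308). The exact tests gave p from 0.0397, for Gsdmc3 after water over epithelial markers, an alternative chosen after seeing the data. Genes called between genotypes fell from 1 to 0 in both treatments with a pseudocount of 0.1 TPM, and became 0 without the filter after DSS, 4 without it after water, 0 after water with a mean of at least 5 TPM, and 2 in both with the transcript as unit. With 1 mouse left out they numbered 0 to 3 after DSS (3 without control replicate 1), 1 to 2 after water and 3 to 7 for cage (7 without knockout replicate 3). The replicate block left 0 calls in both treatments, but the numbers share no source: same-numbered mice correlated at -0.20 to -0.03 after DSS and -0.08 to 0.09 after water. Under the block Casp1 after DSS was 0.023, and no call of a member changed. Directions that turned belonged to small differences. Leaving out 1 mouse, log2 differences after DSS ranged from -0.36 to 0.035 for Gsdmc2, -0.37 to 0.037 for Gsdmc4, -0.32 to 0.019 for Gsdmd, -0.28 to 0.11 for Casp1 and -0.11 to 0.039 for Il18. Gsdmd after water ranged from -0.19 to 0.014, and cage differences from -0.22 to 0.022 for Gsdmd and -0.12 to 0.020 for Casp1. In TPM the ranges after DSS were -63.6 to 1.99 for Gsdmc4, -11.7 to 1.01 for Gsdmd, -25.2 to 5.30 for Casp1 and -6.88 to 2.51 for Il18, and after water -8.55 to 0.83 for Gsdmd. Without DSS control replicate 3, the log2 genotype differences of Gsdmc2, Gsdmc4, Gsdmd and Il18 after DSS were above 0, while Gsdmc2 in TPM was -1.62. Without DSS control replicate 1, the log2 differences of Gsdmc2, Gsdmc3 and Gsdmc4 were -0.36, -0.52 and -0.37 (adjusted p 0.905 for each, limma). The exact permutation p was then 0.0667 for each, the smallest possible with those mice. Il18 after DSS turned to 0.10 with the transcript as unit and to 1.37 TPM over epithelial markers. Between treatments, the log2 level difference of Casp4 in controls was -0.04, but 0.38 in mice labelled knockout and 0.20 in all mice, 0.041 in females, and -0.13 to 0.067 with 1 mouse left out. That of Il18 was 0.12, but -0.24 rescaled, -0.036 over summed TPM, -0.062 over epithelial markers, -0.35 in females rescaled, and -0.090 to 0.24 with 1 mouse left out. The cause of these turns was not tested. Depth limits Casp4 and Il18 most among the detected genes, and TPM give no counting error.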

Other observations

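Il18 varied against Gsdmc2 and Gsdmc4, less so against Gsdmc3, among water-treated mice. Over the 16 mice, with group means removed, r between Gsdmc2 and Il18 was -0.81 (Spearman's rho -0.72), and -0.67 without the 2 mice farthest from the median of Gsdmc2. Within the 9 water-treated mice r was -0.93 and within the 7 DSS-treated mice -0.00. With group and cage means removed it was -0.88. For Gsdmc4 and Il18 the r over all mice was -0.70. For Gsdmc3 and Il18 it was -0.39, falling in size to -0.16 with group and cage means removed, and it was -0.59 within water-treated mice. The 2 water-treated mice with the highest Gsdmc2, both labelled knockout in cage a at 709.5 and 628 TPM, had Il18 at 71.1 and 64.8 TPM, and the control with the lowest Gsdmc2, at 203 TPM, had the highest Il18, at 114 TPM. The pair was picked after 21 pairs of members were seen, the values of a mouse come from 1 library, and no test was made.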
